A study of Mus musculus with 23 samples.

Results

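Zdbf2 and Impact are 2 paternally expressed imprinted genes, here followed through 23 whole mouse embryos with and without the imprinting factor Zfp57. They are 2 of the 26183 gene symbols in the deposited tables. They were chosen by their paternal share of reads, which in embryos lacking only maternal Zfp57 lay between the control level and the level of embryos lacking Zfp57 altogether and varied from embryo to embryo. Those shares, and every difference of the 2 genes between genotypes in share or level, are therefore given as descriptions without a test. The tests below concern the level of Zfp57 itself, the sexes of the controls in level, the neighbours, a set of pathway genes and tissue markers.

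The embryos were hybrids of the strains 129 and DBA at E13.5, mid-gestation, 13 female and 10 male, with 1 library each. The 6 M-Z+ and 7 M-Z- embryos had mothers homozygous for a deleted Zfp57 allele on the 129S6/SvEvTac background and fathers heterozygous for it on a mainly DBA/2J background (DBA*), so that M-Z+ embryos had a functional paternal copy and M-Z- embryos had none. The 10 M+Z+ embryos had Zfp57 in the oocyte and in the embryo, and are the controls. The same zygotic genotype, Zfp57-/+, is given in the titles of the controls and of the M-Z+ embryos, and it is not settled here whether the controls carried the deleted allele. By sex there were 6 M+Z+, 3 M-Z+ and 4 M-Z- females, and 4 M+Z+, 3 M-Z+ and 3 M-Z- males. Where a read covered a variant between the strains it was assigned to a parent, 129 being the mother's allele and DBA the father's.

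In imprinted genes, a mark of DNA methylation laid down in the egg or the sperm makes the embryo use the copy from a single parent. ZFP57 is a zinc finger protein that binds the methylated sequence TGCCGC and helps to keep these marks through the early divisions. Zdbf2 encodes a DBF-type zinc finger protein and is active in the hypothalamus and pituitary. Its imprint is unusual in that a long transcript from a distal promoter, made from the paternal copy in the early embryo, acts on the canonical promoter downstream. Impact encodes a protein that binds GCN1 and thereby holds back GCN2 (Eif2ak4), a kinase that senses amino acid shortage and drives the integrated stress response. Its imprint is a maternally methylated region inside the gene.

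Zdbf2 spans chr1:63246932-63361149 on the plus strand of mm9, with 13128 bases of exons. The span of Zdbf2 starts at the distal promoter and holds the canonical promoter 72911 bases further on, so its count would include transcripts from either. RefSeq holds a promoter of 300 bases for each start, 250 before it and 50 after it, and both matched mm9 exactly once. They are shown because they are the 2 annotated starts of Zdbf2 within the counted span (which of them was used was not measured), with the motif TGCCGC in capitals on either strand (GCGGCA is its reverse complement). The GRCm38.p6 positions, both on the plus strand, are chr1:63200108-63200407 (mm9 chr1:63246682-63246981) for the distal promoter and chr1:63273019-63273318 (mm9 chr1:63319593-63319892) for the canonical one.
Zdbf2 distal promoter: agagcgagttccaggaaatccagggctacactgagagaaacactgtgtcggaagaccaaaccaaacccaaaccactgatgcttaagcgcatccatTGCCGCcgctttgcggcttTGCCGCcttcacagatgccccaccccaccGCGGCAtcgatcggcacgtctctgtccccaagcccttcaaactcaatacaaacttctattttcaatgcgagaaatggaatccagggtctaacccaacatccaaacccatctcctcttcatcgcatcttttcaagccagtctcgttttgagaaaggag
Zdbf2 canonical promoter: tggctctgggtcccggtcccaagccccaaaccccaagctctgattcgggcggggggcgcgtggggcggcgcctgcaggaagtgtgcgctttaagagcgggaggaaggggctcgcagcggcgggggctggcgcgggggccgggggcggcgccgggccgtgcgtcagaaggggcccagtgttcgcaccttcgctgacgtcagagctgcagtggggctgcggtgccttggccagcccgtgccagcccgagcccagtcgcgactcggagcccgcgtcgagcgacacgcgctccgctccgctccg
The distal promoter held 3 matches, 2 on the plus and 1 on the minus strand, which do not overlap. As many or more stood in 0.234% of the 32851 RefSeq mouse promoters of that length, and at least 1 match stood in 11.6% of them. The canonical promoter held 0 matches, which says only that these letters are not in this window. It had 38 CpG dinucleotides, the pairs that DNA methylation marks, against 15 in the distal promoter and a median of 7 over all promoters. A match is a description of the letters and not a binding site measured here.

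The 23 libraries held 15.2 M to 24.1 M gene counts and 2.46 M to 3.94 M allele-assigned reads (M, 1000000). Zfp57 itself was at 52.7 to 99.1 CPM (counts scaled to 1000000 per library) in M+Z+ and 66.6 to 78.6 CPM in M-Z+ embryos, and at 25.5 to 35.3 CPM in M-Z- embryos, where it was lower than in M+Z+ by edgeR's quasi-likelihood test, with p adjusted by Benjamini-Hochberg over all tested genes (log2 fold change of -1.02 ± 0.138 (SE) in females with an adjusted p of 0.000399, and of -1.33 ± 0.115 in males with one of 4.69e-05). The M-Z- label and the level thus go together, although some reads of the gene were still counted there. The 3 male M-Z- embryos were unlike each other. The chi-square per degree of freedom between their gene counts was 17.7 for the first and the third, 36.6 for the first and the second and 47.7 for the second and the third, against 2.27 to 21.2 in the 33 pairs within other groups, so by this measure the second was the farthest from the rest. The number of genes called between M-Z- and M+Z+ males turned on the third: it was 65 (0.39% of tested genes) with all embryos, 92 without the first, 51 without the second and 899 (5.33%) without the third. The M-Z- over M+Z+ male fold changes, allele ratios, mean P-scores, sex differences, neighbours and stress genes are given below with and without the third embryo. So are the calls of the hepatic and heart markers. The other values of M-Z- males include the third embryo. Without it Zfp57 had a log2 fold change of -1.28 ± 0.13 in males (SE, edgeR adjusted p = 0.00015). The summed level of the 6 hepatic markers in the third was 4484 CPM against 2166 and 1697 CPM in the other two, and 4748 to 6834 CPM in M+Z+ males.

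Zdbf2 was higher in embryos without any Zfp57. In females it was between 110.7 and 146.6 CPM, median 125.3, in the 6 M+Z+ embryos, and 216.4, 279.4, 257.7 and 243.8 CPM in the 4 M-Z- embryos. In males it was 123.3, 109.2, 105.2 and 112.7 CPM in M+Z+ and 236.0, 214.0 and 175.8 CPM in M-Z- embryos. In both sexes every M-Z- embryo was above every M+Z+ embryo, which held for 2.24% of tested genes in females and 4.41% in males. In edgeR's fit to the counts the log2 fold change was 0.95 ± 0.0706 (SE) in females and 0.93 ± 0.104 in males, or 1.94-fold and 1.91-fold. The male value was 0.85 ± 0.111 without the first M-Z- male, 0.87 ± 0.106 without the second and 1.06 ± 0.0845 without the third.

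Impact, which spans chr18:13130432-13151459 on the plus strand of mm9 with 3839 bases of exons, was also higher. In females it was between 51.5 and 63.7 CPM, median 57.5, in M+Z+, and 92.8, 91.4, 104.7 and 108.3 CPM in M-Z- embryos. In males it was 54.0, 56.7, 54.9 and 57.3 CPM in M+Z+ and 92.3, 94.0 and 71.2 CPM in M-Z- embryos. Here too the ranges of M-Z- and M+Z+ did not overlap in either sex, and the third male was the lowest of the M-Z- embryos for both genes. The log2 fold change was 0.78 ± 0.0604 (SE) in females and 0.67 ± 0.116 in males, or 1.71-fold and 1.59-fold. The male value was 0.63 ± 0.133 without the first M-Z- male, 0.55 ± 0.109 without the second and 0.80 ± 0.0977 without the third. Over all tested genes edgeR called 48 higher in females (0.285% of 16871) and 44 in males (0.264% of 16664), and nothing is read from these shares for the 2 genes, whose choice used this contrast.

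The M-Z+ embryos, described without a test, lay nearer to M+Z+ in level. Zdbf2 was at 166.6, 160.4 and 167.2 CPM in M-Z+ females and 153.6, 141.4 and 125.4 CPM in M-Z+ males, and none of the 6 fell into the M+Z+ range of its own sex. Impact was at 65.4, 68.5 and 69.7 CPM in M-Z+ females, all above the M+Z+ females, and at 55.2, 74.1 and 62.1 CPM in M-Z+ males, where the first fell among the M+Z+ males. Over all tested genes, 2.24% in females and 7.39% in males had M-Z+ embryos that all lay above all M+Z+ embryos, and 0.0593% and 0.048% were called in this contrast, all of them higher. The fitted log2 fold changes of M-Z+ over M+Z+ were 0.35 ± 0.078 (SE) for Zdbf2 and 0.22 ± 0.0675 for Impact in females, and 0.29 ± 0.105 and 0.17 ± 0.118 in males. Those of M-Z- over M-Z+ were 0.61 ± 0.0854 and 0.56 ± 0.0727 in females, and 0.64 ± 0.112 and 0.49 ± 0.125 in males. These contrasts share embryos with each other and with the M-Z- comparison.

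Ordered by mean, Zdbf2 was at 249.3 ± 26.4 CPM (SD, n = 4) in M-Z- females, 208.6 ± 30.4 (n = 3) in M-Z- males, 164.7 ± 3.75 (n = 3) in M-Z+ females, 140.1 ± 14.1 (n = 3) in M-Z+ males, 128.3 ± 13.0 (n = 6) in M+Z+ females and 112.6 ± 7.78 (n = 4) in M+Z+ males. The ranges of neighbours in this order overlapped between the sexes of M-Z-, between M-Z+ males and M+Z+ females, and between the sexes of M+Z+. Impact kept the same order, from 99.3 ± 8.43 (SD, n = 4) and 85.8 ± 12.7 (n = 3) through 67.9 ± 2.19 (n = 3) and 63.8 ± 9.57 (n = 3) to 57.8 ± 4.68 (n = 6) and 55.7 ± 1.54 CPM (n = 4). Of its neighbours in the order only M-Z- males and M-Z+ females had ranges that did not overlap. Per length the genes changed places: in M+Z+ females Zdbf2 was at 21.7 ± 2.99 TPM (counts scaled to exon length and library, SD, n = 6) and Impact at 33.3 ± 3.87 TPM.

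**Figure D1:**
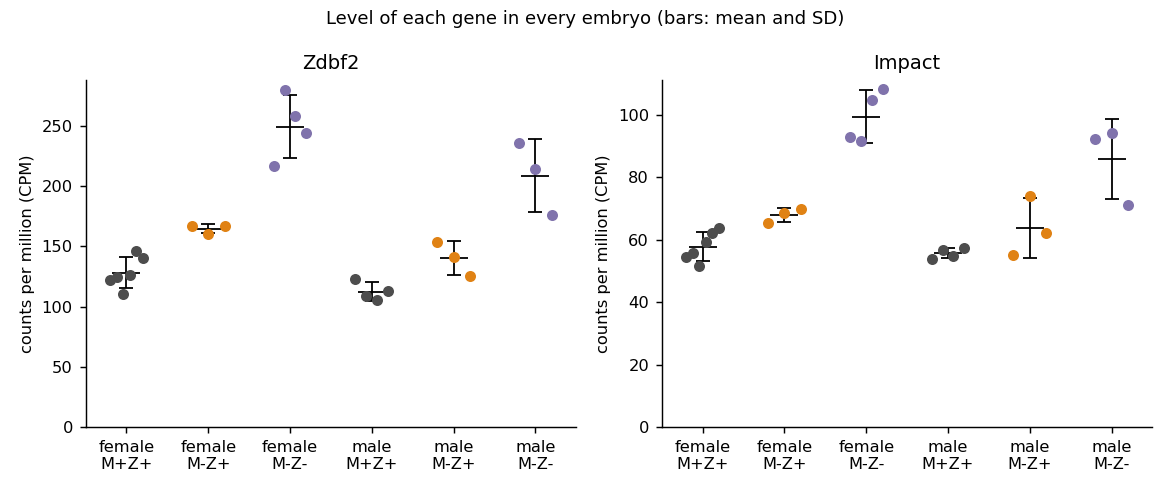
Level of Zdbf2 (left) and Impact (right) in CPM in each of the 23 embryos, by sex and genotype, with the mean and SD of each group. For both genes the M-Z- embryos lie above all M+Z+ embryos within a sex, and the M-Z+ embryos lie between or among them.

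The sexes were compared next. In M+Z+ embryos the log2 difference of females over males was 0.19 ± 0.0845 for Zdbf2 (SE, approximate 95% interval 0.02 to 0.35, edgeR adjusted p = 0.935) and 0.05 ± 0.0844 for Impact (interval -0.11 to 0.22, adjusted p = 0.959), so neither was among the 14 genes called (0.0817% of 17139). The difference between the sexes in the M-Z- over M+Z+ log2 fold change is given without a test. It was 0.04 ± 0.129 for Zdbf2 (SE, interval -0.22 to 0.29) and 0.12 ± 0.129 for Impact (interval -0.13 to 0.37), and without the third male M-Z- embryo -0.09 ± 0.119 and -0.01 ± 0.116. In the M-Z+ fold change it was 0.05 ± 0.135 for Zdbf2 (interval -0.21 to 0.32) and 0.04 ± 0.136 for Impact (interval -0.22 to 0.31). Each of these intervals of the sex difference in the genotype effect holds values of either sign. How small a difference could be detected with these embryos was not tested.

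Allele-assigned reads differed greatly in number between the genes. Zdbf2 had 38 to 158 in an embryo, 2.84% of its total count, and Impact 456 to 1093, or 53.3%. Shares of Zdbf2 are therefore less exact, and each share below is followed where needed by its 95% Wilson interval, which covers counting error only.

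In M+Z+ embryos most reads of both genes were paternal. The paternal share of Zdbf2 was 82.6% to 89.5%, median 87.0%, in the 6 females and 84.9%, 86.0%, 93.2% and 70.8% in the males, the last from 65 reads (interval 58.8% to 80.4%). The paternal share of Impact was 84.7% to 88.0%, median 86.8%, in females and 88.1%, 88.3%, 88.9% and 87.6% in males. Neither gene was purely paternal: summed over the M+Z+ embryos of a sex, 55 of 387 and 42 of 245 reads of Zdbf2 and 443 of 3333 and 279 of 2373 reads of Impact were maternal. The P-score used by the study is the paternal share as a fraction minus 0.5, so that 0.5 is purely paternal, 0 equal and -0.5 purely maternal. It averaged 0.364 ± 0.0252 (SD, n = 6) and 0.337 ± 0.0938 (n = 4) for Zdbf2 in M+Z+ females and males, and 0.367 ± 0.0124 and 0.382 ± 0.00548 for Impact.

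In M-Z- embryos the alleles of Zdbf2 were nearly level, with somewhat more maternal reads. Its paternal share was 42.6%, 40.5%, 38.9% and 49.2% in females and 29.5%, 48.2% and 43.2% in males, below 50% in all 7. Summed, it was 42.7% of 539 reads in females (interval 38.6% to 46.9%) and 41.0% of 288 in males (interval 35.4% to 46.7%). Impact stayed on the paternal side in all 7, at 68.6%, 62.5%, 56.4% and 55.8% in females and 59.2%, 56.8% and 64.8% in males. Summed, its paternal share was 60.6% of 3957 reads (interval 59.0% to 62.1%) and 59.9% of 2155 (interval 57.8% to 62.0%). The mean P-scores were -0.072 ± 0.0453 (SD, n = 4) and -0.097 ± 0.0966 (n = 3) for Zdbf2, and 0.108 ± 0.0599 and 0.103 ± 0.0408 for Impact. Without the third male they were -0.111 for Zdbf2 and 0.0803 for Impact in males. For both genes the M-Z- embryos were all below the M+Z+ embryos within a sex, as for 0.658% of the 6387 genes with more than 10 allele-assigned reads in every embryo in females and 5.14% in males. This contrast was used in the choice of the genes.

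The M-Z+ embryos spread over this whole range. For Zdbf2 the paternal share in females was 85.7% (interval 76.7% to 91.6%) in the first embryo, inside the M+Z+ range, and 55.6% (44.1% to 66.5%) and 65.6% (55.3% to 74.5%) in the other two. In males it was 56.7% (44.8% to 67.9%), 47.1% (35.7% to 58.8%) and 64.1% (51.8% to 74.7%), below every M+Z+ male. For Impact in females it was 87.5%, 86.0% and 80.4% (77.2% to 83.3%), of which only the last lay below the M+Z+ females. Over the 6387 genes, all M-Z+ embryos lay below all M+Z+ embryos for 1.19% in females and 3.27% in males, and nothing is read from these shares because the contrast chose the genes. In males it was 85.2% (81.6% to 88.1%), 61.7% (57.8% to 65.5%) and 74.4% (70.7% to 77.8%). The second male was the most shifted M-Z+ embryo for both genes and had the highest Impact level of the M-Z+ embryos. The mean P-scores were 0.189 ± 0.154 (SD, n = 3) and 0.060 ± 0.0853 for Zdbf2 in females and males, and 0.346 ± 0.0375 and 0.238 ± 0.117 for Impact.

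**Figure D2:**
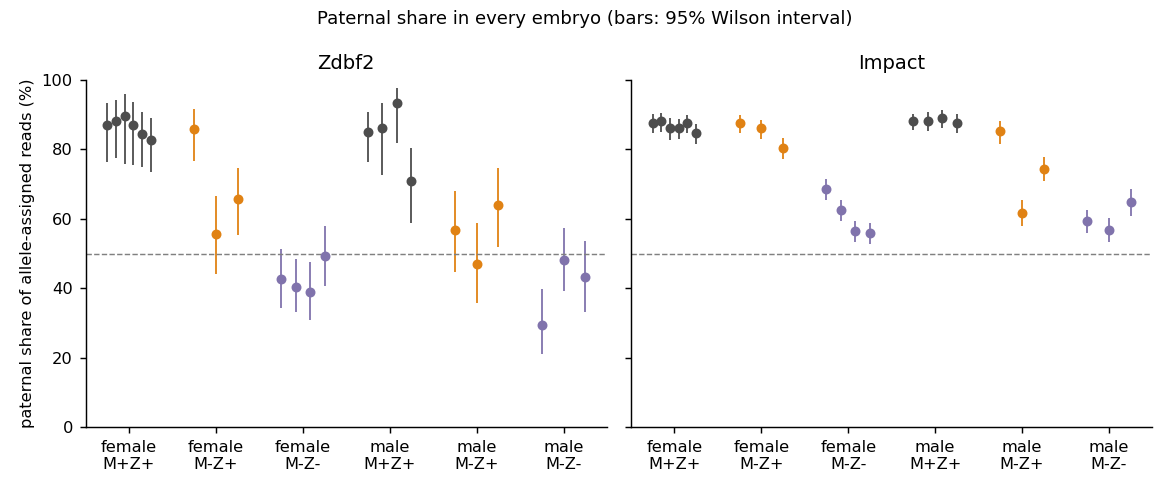
Paternal share of allele-assigned reads (%) of Zdbf2 (left) and Impact (right) in each embryo, by sex and genotype, with its 95% Wilson interval; the dashed line marks equal alleles. M+Z+ embryos lie above 70% for both genes, M-Z- embryos lie below 50% for Zdbf2 and above it for Impact, and M-Z+ embryos are spread in between.

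The sexes were also set side by side in share, without a test, since the genes were chosen by these shares. The female shift minus the male shift of the mean P-score from M+Z+ to M-Z+ was 0.103 for Zdbf2 and 0.124 for Impact. Single M-Z+ embryos moved both values. That of Zdbf2 was 0.0193 without the first female, 0.0588 without the second male and 0.170 without the second female. That of Impact was 0.064 without the second male and 0.181 without the first male. From M+Z+ to M-Z- it was -0.0018 for Zdbf2 and 0.0208 for Impact, and without the third male M-Z- embryo it was 0.0125 and 0.0433. On leaving out each embryo in turn it was -0.0557 to 0.0414 for Zdbf2 and -0.005 to 0.0433 for Impact.

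Within a genotype the differences of females over males rested on single embryos in the same way. Within M-Z+ that of Zdbf2 was 0.13, but 0.0461 without the first female, 0.0855 without the second male and 0.197 without the second female. That of Impact was 0.109, but 0.0485 without the second male and 0.166 without the first. Within M+Z+ the difference was 0.0268 for Zdbf2, but -0.0165 without the fourth male and 0.0583 without the third, and -0.0155 for Impact. Within M-Z- it was 0.025 for Zdbf2, but -0.0289 without the first male, 0.0645 without the second, 0.0393 without the third and 0.0036 without the fourth female. That of Impact was 0.0053 there and lay between -0.0205 and 0.0278 on leaving out each embryo, the latter without the third male.

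Counting each allele by itself shows which copy carried the shift, in RPM (reads of the gene and allele scaled to the embryo's allele-assigned reads). Maternal reads of Zdbf2 were 1.46 to 5.52 RPM, median 2.61, in M+Z+ females and 22.9, 32.4, 29.9 and 20.6 in M-Z- females, a ratio of means of 8.37. In males they were 3.55, 2.21, 1.03 and 6.89 in M+Z+ and 25.2, 23.4 and 19.4 in M-Z- embryos, a ratio of 6.63 (7.11 without the third M-Z- male). The paternal reads overlapped between the groups: 12.4 to 26.2 in M+Z+ and 17.1 to 22.1 RPM in M-Z- females, and 13.6 to 20.03 in M+Z+ and 10.6 to 21.8 in M-Z- males, with ratios of means of 1.02 and 0.974 (1.01 in males without the third). The mean CPM of Zdbf2 in M-Z- was 1.94 and 1.85 times that in M+Z+ (2.0 times in males without the third), and it was the maternal reads that differed between the groups.

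Impact showed the same in males, and in females its paternal reads differed as well. Its maternal reads were 23.1 to 31.1 RPM in M+Z+ and 91.2, 122.2, 166.9 and 155.8 RPM in M-Z- females, a ratio of means of 5.22. In males they were 21.7 to 23.9 RPM in M+Z+ and 131.7, 133.4 and 81.3 RPM in M-Z- embryos, a ratio of 5.08 (5.83 without the third M-Z- male). Its paternal reads were 143.9 to 183.1 in M+Z+ and 196.8 to 215.4 RPM in M-Z- females, with a ratio of 1.22. In males they were 163.8 to 174.9 and 149.4 to 191.4 RPM, with a ratio of 1.01 (1.08 without the third M-Z- male).

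In M-Z+ females maternal reads of Zdbf2 were 4.33, 11.5 and 11.1 RPM and in M-Z+ males 11.7, 14.6 and 8.39. Those of Impact were 27.4, 31.3 and 45.8 in females and 27.9, 96.2 and 55.1 in males. The paternal reads of Impact were 187.8 to 192.4 RPM in M-Z+ females, above the M+Z+ range, and 155.1 to 160.4 RPM in M-Z+ males, below it. The share of all genes whose allele reads separate the groups in this way was not counted, so nothing is read from it. The first M-Z+ female had few maternal reads of either gene and yet a Zdbf2 level of 166.6 CPM, with the second highest number of paternal Zdbf2 reads of all embryos (25.99 RPM). These alleles are made of the same reads as the shares that chose the genes, so no test is given.

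**Figure D3:**
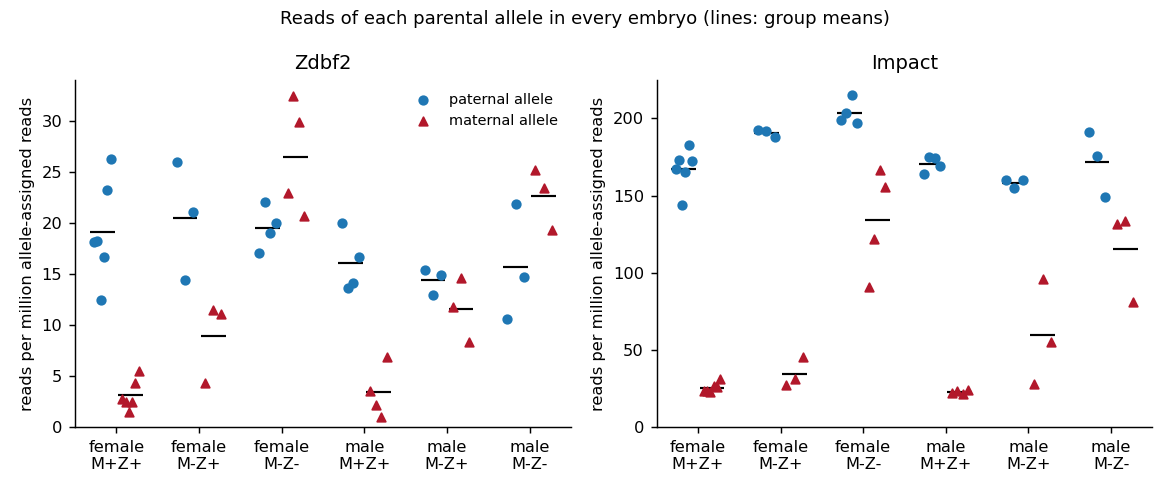
Paternal (circles) and maternal (triangles) reads of Zdbf2 (left) and Impact (right) in RPM, scaled to allele-assigned reads, in each embryo, with group means as lines. Within a sex the paternal reads of Zdbf2 overlap between all genotypes, while its maternal reads average 3.16 and 3.42 RPM in M+Z+ and 26.5 and 22.7 RPM in M-Z- females and males.

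The 2 genes were set beside other paternally expressed imprinted genes from a list of 27 symbols. Of these, 16 had more than 10 allele-assigned reads in at least 3 embryos of every group, and 12, the 2 genes included, had mean P-scores at least 0.1 lower in M-Z- than in M+Z+ embryos of both sexes. For each M-Z+ embryo the shift from the M+Z+ mean was expressed as a percentage of the mean M-Z- shift of its sex, so that 0 is the control level and 100 the level without any Zfp57. The 12 genes fell into different ranges, described here without a test. Plagl1, a zinc finger transcription factor, and Dlk1, a membrane ligand, stayed between -1.55% and 1.64% in all 6 embryos. Inpp5f, an inositol phosphatase, reached at most 15.7% and the noncoding Peg13 12.3%. The genes of the Snrpn cluster were shifted in every embryo: Snrpn, a splicing protein gene, by 48.6% to 101%, Ndn, a growth suppressor, by 43.8% to 93.9%, Magel2 by 46.6% to 110%, Mkrn3 by 56.2% to 123% and Peg12 by 28.9% to 89.1%.

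The values of Zdbf2 and Impact ran from the control level into the range of the Snrpn cluster. Zdbf2 was at 1.6%, 70.8% and 47.8% in the females and 62.2%, 84.5% and 45.3% in the males. Impact was at -3.21%, 2.71% and 24.3% in the females and 11.0%, 94.9% and 49.5% in the males. The first M-Z+ female was at the control level for both, and in the same embryo Snrpn was at 101% and Ndn at 93.9%. In the second female Zdbf2 was at 70.8%, above Snrpn (54.9%), Ndn (58.9%) and Peg12 (57.9%) and below Magel2 (80.5%) and Mkrn3 (118%), while Impact was at 2.71%. In the second male the values of Zdbf2 (84.5%) and Impact (94.9%) were above those of all 5 genes of the cluster, which lay between 70.9% and 83.9%. The Zdbf2 values of the second female and the second male rest on 72 and 68 reads. Counting error was not carried into these percentages, so the order of the genes within an embryo is that of the point values only. Usp29 was the remaining gene of the 12 with an embryo above 25%, at 33.3% in the first male and 27.2% in the third female. Nnat, also on the list, was not among the 12. Its mean P-score in females was 0.290 in M+Z+, 0.247 in M-Z+ and 0.246 in M-Z- embryos. In males it was 0.316 in M+Z+, 0.0725 in M-Z+ and 0.203 in M-Z- embryos, with 23 to 28 reads in each M-Z+ male.

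**Figure D4:**
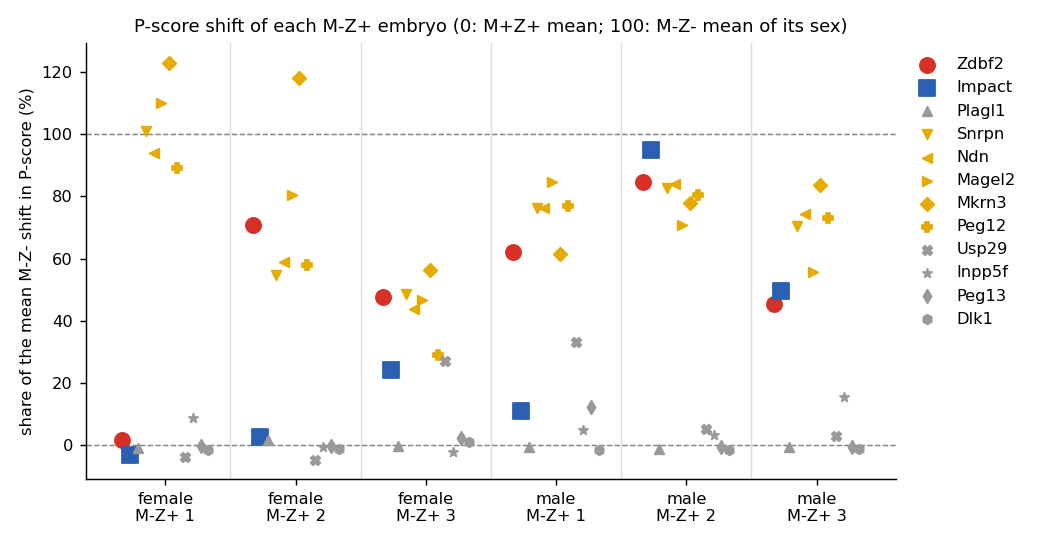
Shift of the P-score in each M-Z+ embryo as a percentage of the mean M-Z- shift of its sex, for the 12 genes with a mean shift of at least 0.1 in both sexes; the dashed lines mark the M+Z+ mean (0) and the M-Z- mean (100). Zdbf2 (red) and Impact (blue) range from about the M+Z+ level in the first female to 84.5% and 94.9% in the second male, the Snrpn cluster (yellow) is shifted in all 6 embryos, and the other genes (grey) are mostly near 0.

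The genes most like each in P-score were named by the smallest mean absolute difference over the 23 embryos, among 6387 genes. For Zdbf2 they were Inpp5f (0.0957), Ndn (0.111) and Impact (0.117). For Impact they were Dlk1 (0.0809), Fmo2 (0.0866) and Pianp (0.0885). Fmo2 and Pianp are not on the imprinted list, and with P-scores of 0.167 to 0.318 and 0.182 to 0.335 as group means they were paternally skewed in every genotype. By Pearson correlation of log2(CPM + 1) over the 23 embryos, which mixes the genotypes, among 15503 genes, the most alike for Zdbf2 were Usp29 (0.939), Impact (0.933) and Mest (0.917). For Impact they were Zdbf2 (0.933), Mest (0.916) and Mirg (0.911). These are descriptions of likeness over libraries that share genotypes.

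Genes near the 2 loci were compared in the same way. The 10 nearest expressed genes of Zdbf2 had M-Z- over M+Z+ log2 fold changes of -0.29 to 0.47 in females and -0.17 to 0.77 in males, with medians of -0.01 and 0.04 beside 0.00 over all tested genes. None was called by edgeR or by DESeq2, and 2 in females and 3 in males had an unadjusted p below 0.05 by both, beside 15.5% and 17% of all tested genes by edgeR. Adam23, an adhesion protein of neurons and the nearest expressed gene downstream at 131316 bases, had a log2 fold change of 0.33 ± 0.0763 in females (SE, edgeR adjusted p = 0.0445) and of 0.30 ± 0.086 in males (adjusted p = 0.142), under the 0.5 required. Its adjusted p ranged from 0.0074 to 0.189 in females and from 0.0434 to 0.33 in males over the alternatives. Gpr1, a receptor gene whose span overlaps the start of Zdbf2 on the other strand, was at 0.181 CPM on average and too low to test. Snora41, a small nucleolar RNA inside Eef1b2 that shares reads with its host, gave the 0.47 and 0.77 and had edgeR adjusted p-values of 0.399 and 0.25. Without the third male M-Z- embryo Snora41 was the 1 called gene of the 10 in males, at 1.06 ± 0.294 (SE, edgeR adjusted p = 0.0406), where 5.33% of all tested genes were called, and the lowest of the 10 was -0.24.

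The 10 nearest expressed genes of Impact had log2 fold changes of -0.25 to 0.09 in females and -0.67 to 0.38 in males. None was called, and 0 had an unadjusted p below 0.05 by edgeR or DESeq2. Without the third male M-Z- embryo they were -1.18 to 0.40 in males, with 0 called by edgeR and 3 at an unadjusted p below 0.05, beside 26.3% of all tested genes in that fit. Osbpl1a, a lipid transfer protein gene 30082 bases upstream, differed by 0.01 ± 0.0543 in females and 0.12 ± 0.0835 in males (SE, edgeR adjusted p = 0.949 and 0.471). Its mean P-scores lay between -0.053 and -0.011 in the 6 groups, near equal alleles.

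**Figure D5:**
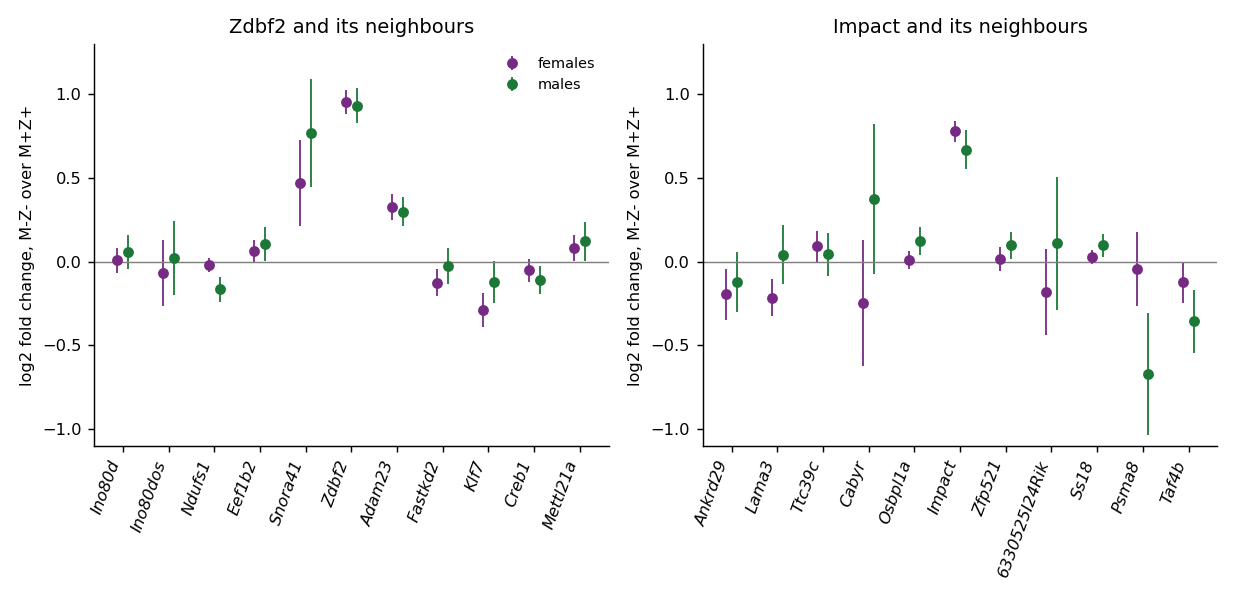
Log2 fold change of M-Z- over M+Z+ with its SE (edgeR) in females and males for Zdbf2 (left), Impact (right) and the 5 nearest expressed genes on each side, in genomic order. Zdbf2 (0.95 and 0.93) and Impact (0.78 and 0.67) stand above their neighbours, of which none was called with all embryos. Without the third male M-Z- embryo Snora41 (1.06) was level with Zdbf2 (1.06) in males.

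Allele reads near Zdbf2 were scarce, which bears on how its own share can be read. Of the 10 genes with at least 1 CPM within 1000000 bases of Zdbf2, 6 had no allele-assigned reads and 0 had more than 10 in every embryo, against 8 of 9 around Impact. Adam23 had 376 maternal and 0 paternal reads over the 23 embryos, with 4 to 31 in each, and a count of 0 allows a paternal share of up to 0.798%. Fam117b, further upstream, had 1459 maternal reads and 1 paternal read. Both were thus read from the maternal allele in all genotypes, in contrast to Zdbf2, and whether strain variants are called correctly there was not tested. The nearest genes with more than 10 reads in every embryo lay 1415983 bases or more away, and 8 of the 10 used had mean P-scores between -0.106 and 0.134 in the 6 groups. Crygc, a lens crystallin gene, was the other exception beside Fam117b, at 0.13 to 0.344.

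Impact acts on the GCN2 pathway, so the genes of the integrated stress response were examined from a list of 30 symbols, of which 28 were tested. None was called between M-Z- and M+Z+ in females or males by edgeR, where 7 and 11 had an unadjusted p below 0.05 (2611 of 16871 and 2825 of 16664 over all tested genes, or 15.5% and 17%), and DESeq2 called 1 in females (Trib3, higher) and 2 in males (Trib3, higher, and Slc7a11, lower), beside 0.877% and 1.1% of all tested genes called by DESeq2 (0.344% higher and 0.533% lower in females, 0.72% higher and 0.384% lower in males). The median log2 fold change was 0.04 in females and -0.08 in males, beside 0.00 over all tested genes. Eif2ak4, the kinase itself, was at 45.9 against 41.6 CPM in females (log2 fold change 0.14 ± 0.0557, edgeR adjusted p = 0.243) and 42.4 against 42.3 CPM in males (0.04 ± 0.0628, adjusted p = 0.776). Gcn1, its activator, differed by 0.08 ± 0.0422 and 0.18 ± 0.075 (edgeR adjusted p = 0.385 and 0.247), and Atf4, the main effector, by 0.05 ± 0.0551 and 0.17 ± 0.0987 (adjusted p = 0.712 and 0.405).

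The ATF4 targets Trib3, a pseudokinase, and Ddit4, an inhibitor of mTORC1, are described further, chosen after their values were seen. Trib3 was at 3.52, 5.57, 4.11 and 3.12 CPM in M-Z- against 0.99 to 2.97 in M+Z+ females, and at 6.93, 10.6 and 2.52 CPM in M-Z- against 1.69 to 2.82 in M+Z+ males (log2 fold change 1.07 ± 0.294 and 1.58 ± 0.375, edgeR adjusted p = 0.089 and 0.0931). Ddit4 was at 82.6, 120, 109 and 125 CPM in M-Z- against 70.2 to 94.2 in M+Z+ females, and at 119, 490 and 93.2 CPM in M-Z- against 86.5 to 97.2 in M+Z+ males, of which the second M-Z- male stood far above the others (log2 fold change 0.39 ± 0.108 and 1.43 ± 0.427, edgeR adjusted p = 0.091 and 0.154). Without that male the values in males were 0.21 ± 0.103 for Ddit4 and 1.02 ± 0.332 for Trib3 (edgeR adjusted p = 0.45 and 0.258), with 0 of the 28 genes called and 5 at an unadjusted p below 0.05, beside 11.9% of all tested genes. Without the first M-Z- male 1 of the 28 was called in males (Slc7a11, lower), beside 92 of all 16887 tested genes. There 14 of the 28 had an unadjusted p below 0.05, beside 19.6% of all tested genes. Without the third male M-Z- embryo, edgeR called 3 of the 28 genes higher and 0 lower in males, where it called 410 higher and 489 lower of all 16866 tested (5.33%). The 3 were Trib3 (1.99 ± 0.241, adjusted p = 0.000518), Ddit4 (1.82 ± 0.347, adjusted p = 0.00901) and Vldlr. In that fit 14 of the 28 had an unadjusted p below 0.05, beside 26.3% of all tested genes. In M-Z+ embryos 0 of the 28 were called in either sex, with 2 and 4 at an unadjusted p below 0.05, beside 6.64% and 7.86% of all tested genes.

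Markers of the tissues in a whole embryo were read beside these values, since in bulk samples fewer cells of a type and less RNA per cell cannot be told apart. The summed level of the 6 hepatic markers was 2521 to 4126 CPM in M-Z- against 3413 to 7271 in M+Z+ females, and 1697 to 4484 against 4748 to 6834 in males, with 1 of 6 called lower in females (Apob, -0.85 ± 0.182 (SE), edgeR adjusted p = 0.0266) and 0 in males, beside 0.279% and 0.126% of all tested genes called lower. With all embryos the log2 fold changes of the 6 were all negative, at -0.88 to -0.38 (median -0.78) in females and -1.14 to -0.44 (median -0.92) in males. All 6 were called lower in males by edgeR without the third M-Z- embryo, with a median log2 fold change of -1.53, beside 2.9% of all tested genes. The 10 neural markers summed to 1832 to 2021 against 2023 to 2405 CPM in females and 1811 to 2009 against 1944 to 2140 in males, with 0 called. Their log2 fold changes were -0.31 to -0.02 in females and -0.19 to 0.20 in males. The 6 pituitary and hypothalamus markers, of which 3 were expressed enough to test, summed to 15.8 to 18.6 against at most 19.5 CPM in females and 18.0 to 19.4 against 15.2 to 21.1 in males, with 0 called. The 5 erythroid markers summed to 3680 to 7989 against 6906 to 10370 CPM in females and 6946 to 11090 against 8892 to 10500 in males, with median log2 fold changes of -0.42 and -0.26 and 0 called. The 4 heart markers summed to 264.7 to 353.4 against 231.7 to 352.3 CPM in females and 293.5 to 427.4 against 273.6 to 342.3 in males. All 4 had a positive log2 fold change in males (0.19 to 0.69), with 0 called, and 3 were called higher without the third male M-Z- embryo (Myh6, Nppa and Myh7), beside 2.43% of all tested genes. The 5 skeletal muscle markers overlapped between the groups in both sexes, with medians of 0.00 and 0.06 and 0 called. The 5 trophoblast and placenta markers summed to at most 0.428 CPM in any embryo, and 1 was at 0 in all. The part of the hepatic, neural, erythroid and heart differences in the levels of Zdbf2 and Impact was not tested.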

How the data were processed

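RNA was sequenced from 23 whole embryos. The authors deposited raw read counts per gene, made by trimming, by alignment to mm9 with STAR 2.7.8a that kept unique end-to-end matches (per the submitters' processing notes) and counting with featureCounts of Subread 2.0.1, strand-specific and with reads that overlap several genes counted for each. They also deposited raw counts per gene and parental allele, made with variants called by GATK, an mm9 masked at these variants, STAR and SNPsplit; the options of that counting step are not given in the sources used here. The exon length deposited per gene was used for TPM only. Columns headed WT were read as M+Z+. In the female allelic table the headers of 4 M+Z+ embryos repeat each other, so these 4 carry no replicate number.

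The members, lists and tests were chosen with earlier results of these data known. Levels were tested with edgeR 4.0.16 (glmQLFit, TMM scaling, filterByExpr; R 4.3.3). Each sex was fitted with all its genotypes, and sex differences were taken from a fit of all 23 embryos. Calls needed a Benjamini-Hochberg adjusted p under 0.05 over all tested genes, and in addition a log2 change of 0.5 or more either way between genotypes, 0.3 or more between the sexes, and no minimum for interactions. P-scores were computed in embryos with more than 10 allele-assigned reads of a gene and are described without a test; tests of the 2 genes between genotypes, of the sexes in the genotype effect and, by exact permutation, of the sexes in P-score were planned and are not reported, because these contrasts chose the genes. The edgeR fits and the permutation tests were checked on simulated data. The simulated counts had the same dispersion in every gene and no unlike embryos, so this check does not cover groups such as the M-Z- males. The genes named are Zdbf2, Impact, Zfp57, any gene of the lists (stress response, neighbours, paternally expressed genes, tissue markers) and the 3 genes most like each in P-score and in level. Replicates are separate embryos. DESeq2 1.42.0, RLE scaling, no filter, no minimum change, only the compared groups, a replicate block, leaving out each embryo, centred P-scores, summed reads, a log2 allele ratio, at least 50 reads and another allele scaling were the alternatives. The allele ratios, neighbours and tissue markers without the third male M-Z- embryo were added after seeing the data. No molecular identifiers are described for the libraries, so reads may repeat a molecule, and intervals cover counting error alone.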

Additional observations from a re-analysis of the deposited data

How the results depend on the processing

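The M-Z- over M+Z+ log2 fold changes of both genes stayed positive under every alternative run. This contrast chose the genes, and their M-Z- and M+Z+ levels did not overlap within a sex, so nothing is read from the stable sign. Leaving out an embryo gave 0.55 to 0.80 for Impact in males (against 0.67), 0.89 to 1.02 for Zdbf2 and 0.73 to 0.81 for Impact in females, and 0.85 to 1.06 for Zdbf2 in males. The numbers of the titles did not pair the embryos, since same-numbered embryos did not deviate together in every pair (correlations of -0.33 to 0.49). A fit with a replicate block gave 1.03 and 0.83 in females and 0.91 and 0.66 in males for Zdbf2 and Impact. For M-Z+ over M+Z+ in females the replicate block raised the described values from 0.35 to 0.43 and from 0.22 to 0.31. Leaving out an embryo gave 0.31 to 0.39 for Zdbf2 there.

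The number of genes called moved more. In females it was 95, but 212 with no minimum change, 148 by DESeq2, 52 with the replicate block and 55 to 116 on leaving out an embryo, the lowest without the M-Z- female 2. In males it was 65, but 184 by DESeq2, 99 with no filter, 40 with only the compared groups, 128 with the replicate block and 41 to 899 on leaving out an embryo. The highest, 899, came without the M-Z- male 3. It was 144 without the M+Z+ male 4, 43 without the M-Z+ male 3, and 41 without either of the M+Z+ males 1 and 2. No test of the sexes of M+Z+ embryos in level passed its threshold for either gene under any alternative. Adam23 passed in females with no minimum change (0.33). Scaled to reads of the same allele, the ratio of paternal Impact reads in M-Z+ over M+Z+ females was 1.1 in place of 1.14. The ranges of these groups then overlapped, which they did not in RPM. The other ratios moved by less than the spread between embryos. With at least 50 reads in every embryo no difference of the sexes in P-score could be given for Zdbf2. Where a value moved, the cause was not tested. The few allele-assigned reads of Zdbf2 limit its shares to intervals of about 20 percentage points per embryo.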
